A study of Mus musculus with 6 samples.

Results

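The 50 genes described here are the ligands, receptors, secreted antagonists and core signalling proteins of the Wnt pathway that an Illumina mouse expression array carries. The rule that picked them uses gene names and no measured value: Wnt, Fzd, Dkk, Sfrp, Dvl, Axin and Tcf7 names with Lrp5, Lrp6, Lef1, Apc, Ctnnb1 and Gsk3b. These genes had 94 of the 45281 probes and made up 50 of the 30774 gene names on the array. The question here is how each of them differed when miR-294, a miRNA abundant in mouse embryonic stem (ES) cells, was returned to cells that cannot make miRNAs of their own.

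The cells were Dicer1-null mouse ES cells of the 129/SvEv strain. Their genotype was Ago2 Δ/Δ;Dicer1 Δ/Δ with a transgenic Ago2-myc driven by a CAG promoter, and both groups shared it. The line came from colonies picked after the deletion and was grown without feeder cells in medium with LIF. One group received a miR-294 mimic and the other cel-239b, a control miRNA from the worm C. elegans, at 300 pmol each, in 3 transfections per group. The plasmid pEGFP-1 (1 μg) went in alongside, so that cells that took it up could be sorted by their GFP at 24 h, and each of the 6 RNA samples went on 1 array, giving 3 miR-294 arrays and 3 cel-239b arrays. The p-values therefore measure the spread between transfections of one line.

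Wnt proteins are secreted, lipid-modified ligands that bind Frizzled receptors and the co-receptors Lrp5 and Lrp6. Without a ligand, a destruction complex built on Axin and Apc holds β-catenin for phosphorylation by Gsk3, which leads to its degradation. Ligand binding recruits Dishevelled and stalls that complex, and β-catenin then enters the nucleus and works with TCF/LEF factors. In mouse ES cells, Wnt signalling is known for helping to maintain the undifferentiated state and, on the way to differentiation, for inducing mesoderm and endoderm genes.

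The RNA that was put back is shown here because its seed, bases 2 to 8 from the 5′ end and here in capitals, is the part that pairs with target mRNAs. The lines give the mature form named miR-294-3p and, of the mature miRNAs read here from its cluster, those with the same seed or a seed 1 base away, 5′ to 3′, from RefSeq (GRCm38.p6).
mmu-miR-294-3p: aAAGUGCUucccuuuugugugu
mmu-miR-291a-3p: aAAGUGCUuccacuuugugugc
mmu-miR-295-3p: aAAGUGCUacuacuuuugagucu
mmu-miR-290a-3p: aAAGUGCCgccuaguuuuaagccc
mmu-miR-291b-3p: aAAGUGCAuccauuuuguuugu
The miR-294-3p sequence lies at chr7:3220691-3220712 on the plus strand. Of 17 mature miRNAs read from the cluster, 3 carry the seed AAGUGCU, and a fully paired seed site in an mRNA would read AGCACUU. The 3p form of miR-292a, a cluster member that the study profiled, was not among those read. The sites of the member mRNAs were not analysed here.

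Reading the arrays requires telling signal from background. A probe was tested when its detection score, the deposited measure of how far it stood above negative controls, was above 0.99 on at least 3 of the 6 arrays. Arrays detected 13855 to 14920 probes (30.6% to 32.9%), had median signals of 62.2 to 72.4 intensity units, and correlated at 0.9948 to 0.9971 within a group and at 0.983 to 0.9882 between groups. Of the members, 38 probes of 25 genes were tested (40.4% of the member probes, beside 32.3% of all probes). All 9 ES cell marker genes of a separate list were detected. The Dicer1 probes, whose place relative to the deleted exon was not checked, overlapped between the groups (means 6.18 and 6.20 on one, 6.35 and 6.27 on the other, log2).

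The 25 genes that were not tested are accounted for by class. They comprise 14 ligands (Wnt1, Wnt2, Wnt2b, Wnt3, Wnt5a, Wnt5b, Wnt7a, Wnt8a, Wnt8b, Wnt9a, Wnt9b, Wnt10b, Wnt11 and Wnt16), 5 receptors (Fzd1, Fzd4, Fzd8, Fzd9 and Lrp6), 5 secreted antagonists (Dkk1, Dkk2, Dkk4, Sfrp4 and Sfrp5) and Dvl3. Of the 56 untested member probes, 54 were detected on no array and 2, one each of Wnt5b and Wnt6, on 1 array. Their deposited signals ran from 44.2 to 109.7, the highest being that of the single Lrp6 probe on one array. A probe at background does not show that its mRNA is absent. Just inside the limit, 4 probes were detected on exactly 3 arrays: 2 of Dkk3 and one each of Lef1 and Dvl2. Of the 56 untested probes, 20 belong to 12 of the tested genes, so that what is given for those genes rests on their detected probes.

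Of the 25 tested genes, 6 were higher with miR-294 (Dkk3, Sfrp1, Fzd5, Axin2, Apc and Tcf7), 11 were lower (Wnt3a, Wnt4, Wnt6, Wnt7b, Wnt10a, Fzd2, Fzd6, Fzd7, Fzd10, Lef1 and Tcf7l2) and 8 passed in neither direction, at an adjusted p below 0.05 for at least one probe. By probe, 11 of 38 were higher (28.9%, beside 16% of all probes tested) and 14 were lower (36.8%, beside 16.3%). Groups did not overlap for 30 member probes (78.9%, beside 47.9%), and 6 had a B-statistic, the log odds of differential expression, above 5 (15.8%, beside 1.47%). That last count rests on all 6 arrays: it was 5 without cel-239b replicate 1, 2 without cel-239b replicate 2, cel-239b replicate 3 or miR-294 replicate 1, 1 without miR-294 replicate 3 and 0 without miR-294 replicate 2. The signed median log fold change over the members was -0.16 and that over all probes 0.01 (for the members -0.05 with a variance-stabilizing transformation and -0.02 over all 94 probes with no detection filter), while the median of the unsigned values was 0.50 for members and 0.17 for all probes. Log fold changes here are miR-294 minus cel-239b on a log2 scale, so that a positive value means higher with miR-294. Because Dkk3 and Lef1 passed the detection limit through the group in which they were high, these counts describe the tested probes and support nothing about all 50 genes. Of the 29 member probes detected on every array, 19 passed the test in the main fit. In a fit of only the 13111 probes detected on every array, 5 member genes were higher and 9 lower. Of all those probes, 16.9% were higher and 17% lower, which are shares of probes and not of genes. In that fit 4 member probes had a B-statistic above 5, beside 219 of the 13111. In RNA from a sorted population, fewer cells of a type and less RNA per cell cannot be told apart.

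**Figure D1:**
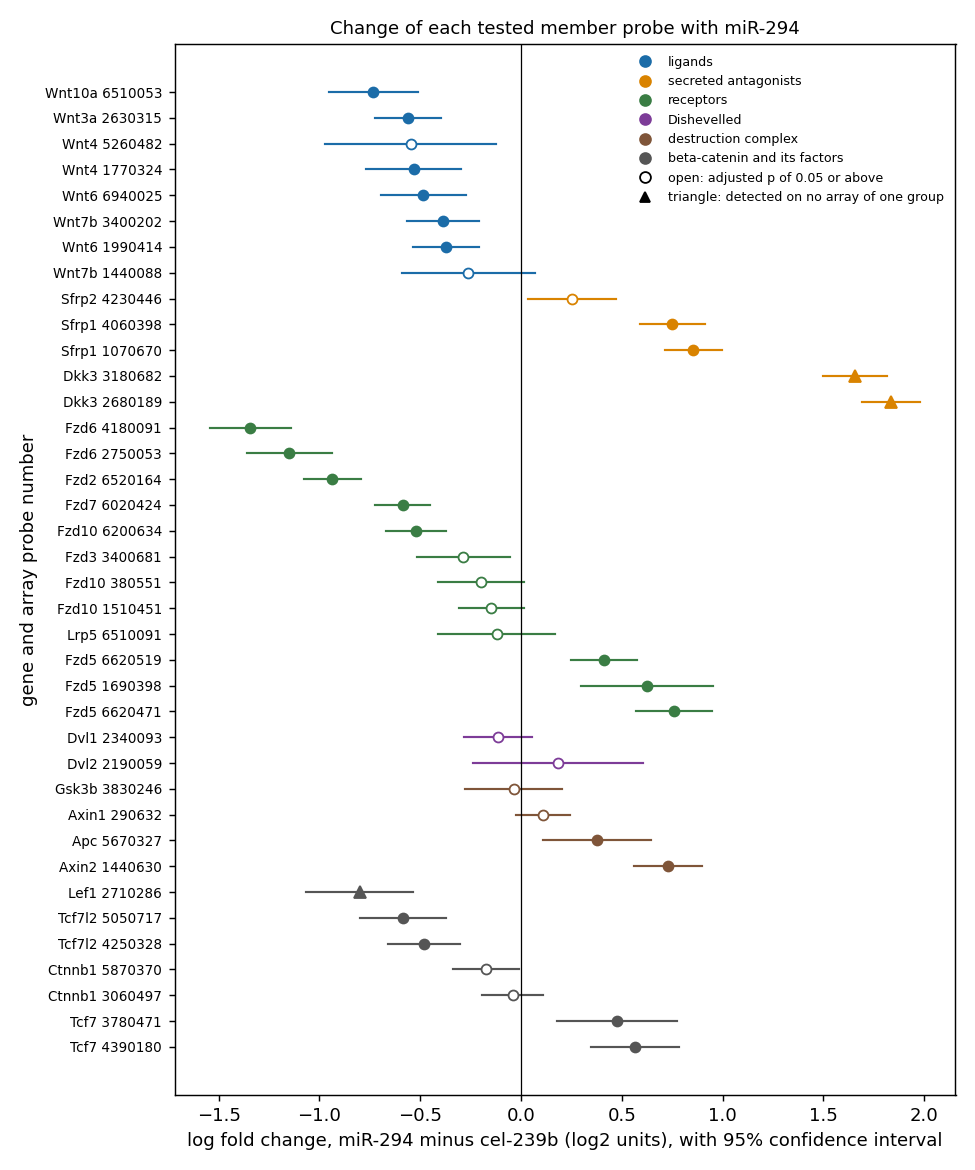
Log fold change (miR-294 minus cel-239b, log2 units, horizontal axis) of each of the 38 tested member probes (vertical axis), with its 95% confidence interval from limma, coloured by class. Filled symbols had an adjusted p below 0.05, and triangles mark the 3 Dkk3 and Lef1 probes that were detected on no array of one group, whose fitted values depend on the background correction. All 8 ligand probes lie below 0, all 5 antagonist probes lie above 0, and the receptors lie on both sides.

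The ligands all pointed the same way. Each of the 5 that were tested was lower with miR-294 on at least one probe, 6 of 8 ligand probes passed the test (75%, beside 16.3% of all probes called lower), and all 8 had a negative log fold change, beside 7048 of 14621 probes in all. Their median was -0.51. In the sentences that follow, values are normalised log2 signals in the order of the replicates, errors of a log fold change are SE with n = 3 per group, and adjusted p-values come from limma over all 14621 probes. The size of a log fold change depends on the scale: of the 30 member probes whose groups did not overlap, 23 moved by over 1.5 times with a variance-stabilizing transformation and 13 with no background correction, and none of them changed direction.

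Wnt3a, a canonical ligand that acts through β-catenin, measured 8.65, 8.75 and 8.65 on the cel-239b arrays and 8.13, 8.22 and 8.02 on the miR-294 arrays (probe 2630315). The groups stood apart by more than the spread within either (log fold change -0.56 ± 0.07, adjusted p = 0.00142). Wnt10a, a ligand of the canonical branch as well, read 6.56, 6.60 and 6.58 on the cel-239b arrays and 6.02, 5.65 and 5.86 on the miR-294 arrays, and 1 of its miR-294 arrays was not above the detection limit. No miR-294 array reached any cel-239b array (log fold change -0.73 ± 0.10, adjusted p = 0.00169). Wnt7b, a ligand best known from lung and placenta, stood at 8.95, 9.20 and 9.07 on the cel-239b arrays and 8.65, 8.67 and 8.74 on the miR-294 arrays on probe 3400202. The groups were again separate (log fold change -0.39 ± 0.08, adjusted p = 0.00901). On Wnt7b probe 1440088 the groups overlapped and the test was not passed (log fold change -0.26 ± 0.14, adjusted p = 0.197).

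Wnt4, a ligand known from kidney and female gonad development, gave 6.86, 7.22 and 7.15 on the cel-239b arrays and 6.55, 6.47 and 6.61 on the miR-294 arrays on probe 1770324. These groups did not overlap (log fold change -0.53 ± 0.10, adjusted p = 0.00729), while on probe 5260482 they did (log fold change -0.55 ± 0.18, adjusted p = 0.0545). Both tested probes of Wnt6, a ligand expressed in epithelia, passed. The first, 1990414, measured 6.98, 7.21 and 7.09 on the cel-239b arrays and 6.73, 6.70 and 6.73 on the miR-294 arrays (log fold change -0.37 ± 0.07, adjusted p = 0.00711). The second, 6940025, read 6.86, 7.01 and 6.96 on the cel-239b arrays and 6.62, 6.31 and 6.44 on the miR-294 arrays (log fold change -0.49 ± 0.09, adjusted p = 0.00687). On both, the highest miR-294 array was below the lowest cel-239b array. Over the 8 ligand probes, log fold changes ran from -0.73 to -0.26.

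Of the secreted antagonists, Dkk3 and Sfrp1 were higher with miR-294 and Sfrp2 did not pass. All 5 tested probes of these 3 genes were higher in each miR-294 array than in any cel-239b array (beside 47.9% of all probes with no overlap in either direction), and 4 passed the test (80%, beside 16% of all probes called higher). The 2 Dkk3 probes among them passed the detection limit only through the miR-294 arrays, so these counts are a description and support nothing about the class. Dkk3 is a divergent Dickkopf protein whose effect on Wnt signalling varies with the cell. Of 3 Dkk3 probes on the array, 6860445 was at background in both groups (deposited signals 53.2 to 61.5 and 55.3 to 55.8). Probe 2680189 stood at 4.64, 4.52 and 4.59 on the cel-239b arrays and 6.38, 6.48 and 6.39 on the miR-294 arrays, and probe 3180682 gave 4.59, 4.53 and 4.69 on the cel-239b arrays and 6.34, 6.21 and 6.23 on the miR-294 arrays. Neither passed the detection limit on any control array, and both passed it on each miR-294 array, with deposited signals of 57.0 to 69.4 against 114.8 to 132.6 intensity units. The difference is therefore a bound, taking each cel-239b array at the lowest signal detected on it. It is at least 1.615-fold higher on the first and at least 1.446-fold on the second. Since both entered the test only through the group in which they are high, no p-value or B-statistic is given for them. With any one miR-294 array left out, neither of these probes reached 3 detected arrays, and both went untested.

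Sfrp1 is a secreted Frizzled-related protein that binds Wnt ligands outside the cell. Its probe 1070670 measured 9.36, 9.28 and 9.38 on the cel-239b arrays and 10.26, 10.15 and 10.17 on the miR-294 arrays. The separation was larger than the spread in either group (log fold change 0.86 ± 0.06, adjusted p = 0.000166, B = 6.12, or 1.81-fold). Its other probe, 4060398, read 9.33, 9.38 and 9.33 on the cel-239b arrays and 10.21, 9.99 and 10.10 on the miR-294 arrays (log fold change 0.75 ± 0.07, adjusted p = 0.000451). Sfrp2, a relative with the same kind of Wnt-binding domain, stood at 5.98, 6.05 and 6.31 on the cel-239b arrays and 6.34, 6.32 and 6.44 on the miR-294 arrays. Its groups did not overlap, though the gap between them was smaller than the spread of either, and it did not pass the test (log fold change 0.25 ± 0.09, adjusted p = 0.0748). It passed with the replicate number as a block (adjusted p = 0.0469) and without cel-239b replicate 3 (adjusted p = 0.0208).

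**Figure D2:**
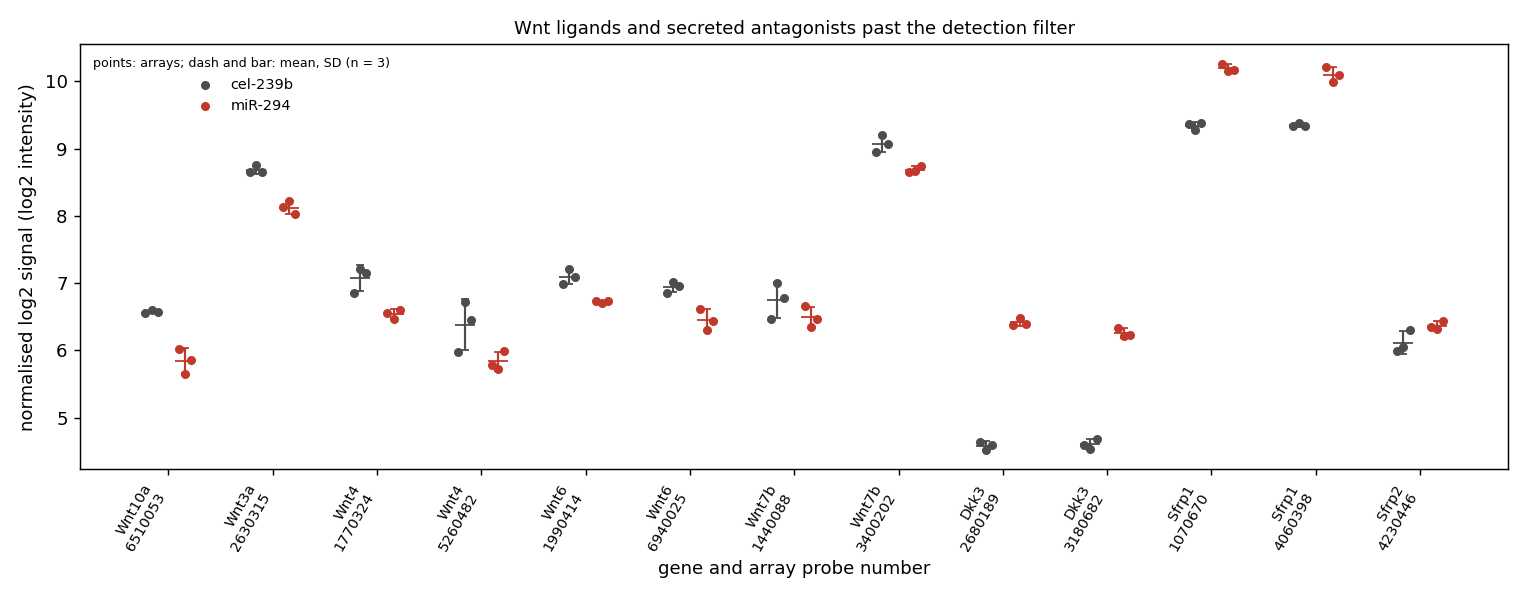
Normalised log2 signal (vertical axis) of every tested Wnt ligand and secreted antagonist probe (horizontal axis) on the 3 cel-239b arrays (grey) and the 3 miR-294 arrays (red); points are arrays, dashes and bars are the mean and SD. Red points lie below grey ones for the ligands, with overlap on 1 Wnt4 and 1 Wnt7b probe, and above them for Dkk3, Sfrp1 and Sfrp2; heights of different probes are not comparable.

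The receptors divided. Of 7 that were tested, Fzd2, Fzd6, Fzd7 and Fzd10 were lower, Fzd5 was higher, and Fzd3 and Lrp5 did not pass. The 12 receptor probes held 5 lower and 3 higher calls, with 3 B-statistics above 5, all of Fzd2 and Fzd6 (41.7%, 25% and 25%, beside 16.3%, 16% and 1.47% of all probes). Frizzleds are membrane proteins that bind Wnt through a cysteine-rich domain.

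Fzd6, which is known for planar cell polarity in hair patterning, gave 7.383, 7.57 and 7.476 on the cel-239b arrays and 5.996, 6.15 and 6.257 on the miR-294 arrays on probe 4180091. On this scale that was the largest fall among the 38 tested member probes (log fold change -1.34 ± 0.09, adjusted p = 0.000122, B = 6.87). With a variance-stabilizing transformation it was -0.40, and Fzd7 (-0.54) fell further. On probe 2750053 it measured 8.06, 8.28 and 8.32 on the cel-239b arrays and 6.95, 7.15 and 7.10 on the miR-294 arrays (log fold change -1.15 ± 0.09, adjusted p = 0.000232, B = 5.39, or 2.22-fold). Fzd2, a receptor used by both canonical and non-canonical ligands, read 7.59, 7.68 and 7.67 on the cel-239b arrays and 6.77, 6.64 and 6.73 on the miR-294 arrays. Its groups lay almost a full log2 unit apart with narrow spreads (log fold change -0.94 ± 0.06, adjusted p = 0.00013, B = 6.68). Fzd7, the Frizzled known for its high expression in ES cells, stood at 11.17, 11.22 and 11.12 on the cel-239b arrays and 10.61, 10.52 and 10.61 on the miR-294 arrays. Each miR-294 array was below each cel-239b array (log fold change -0.59 ± 0.06, adjusted p = 0.000631). Fzd10, whose expression in embryos marks neural tube and limb, gave 9.31, 9.34 and 9.36 on the cel-239b arrays and 8.81, 8.91 and 8.73 on the miR-294 arrays on probe 6200634 (log fold change -0.52 ± 0.06, adjusted p = 0.00128). Its other 2 probes had the same sign without passing: -0.20 ± 0.09 with overlap (probe 380551, adjusted p = 0.136) and -0.15 ± 0.07 with a narrow gap (probe 1510451, adjusted p = 0.141).

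Fzd5 was higher on its 3 tested probes, and its other probe was detected on no array. It is a canonical Frizzled needed for yolk sac and placental vessels. Probe 6620519 measured 10.39, 10.23 and 10.19 on the cel-239b arrays and 10.73, 10.67 and 10.64 on the miR-294 arrays (log fold change 0.41 ± 0.07, adjusted p = 0.00483). Probe 6620471 read 7.94, 7.86 and 7.69 on the cel-239b arrays and 8.67, 8.54 and 8.56 on the miR-294 arrays (log fold change 0.76 ± 0.08, adjusted p = 0.000766). On probe 1690398, where 1 cel-239b array was not detected, it stood at 6.31, 6.19 and 5.75 on the cel-239b arrays and 6.67, 6.67 and 6.79 on the miR-294 arrays (log fold change 0.62 ± 0.14, adjusted p = 0.0139). On each probe the lowest miR-294 array was above the highest cel-239b array. Fzd3, which guides axons, gave 6.13, 6.15 and 5.81 on the cel-239b arrays and 5.81, 5.69 and 5.73 on the miR-294 arrays; the lowest cel-239b and highest miR-294 values differ only beyond the second decimal, and the test was not passed (log fold change -0.29 ± 0.10, adjusted p = 0.0629). It did pass with median scaling (adjusted p = 0.0446) and without cel-239b replicate 3 (adjusted p = 0.0122). For Lrp5, the co-receptor, the groups overlapped (log fold change -0.12 ± 0.12, 95% interval -0.41 to 0.17, adjusted p = 0.487).

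**Figure D3:**
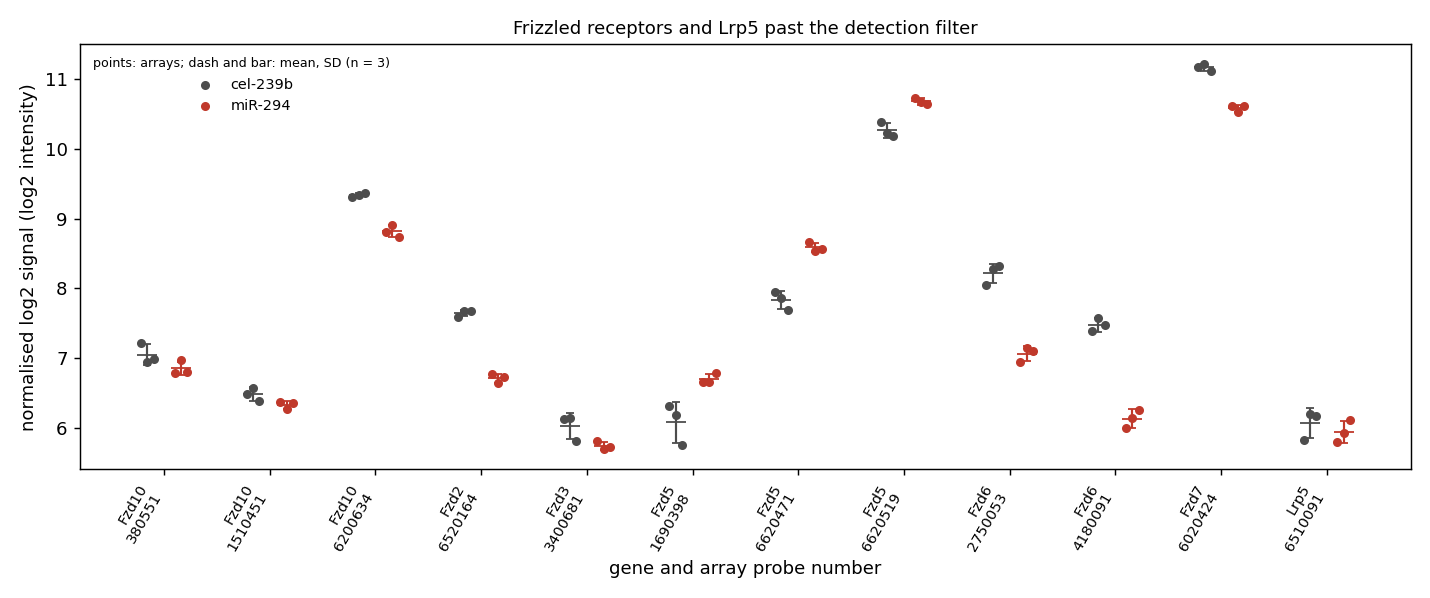
Normalised log2 signal (vertical axis) of every tested Frizzled and Lrp5 probe (horizontal axis) on the 3 cel-239b arrays (grey) and the 3 miR-294 arrays (red); points are arrays, dashes and bars are the mean and SD. Fzd2, Fzd6 and Fzd7 are lower with miR-294 on every tested probe, the 3 tested Fzd5 probes are higher, and 1 of 3 Fzd10 probes passes the test.

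Inside the cell, the Dishevelled proteins, which relay the receptor's signal, did not pass: Dvl1 had a log fold change of -0.11 (95% interval -0.28 to 0.06, adjusted p = 0.266) and Dvl2, detected on 3 arrays, one of 0.18 (-0.24 to 0.61, adjusted p = 0.471). The groups overlapped on both. Of the 4 destruction complex genes, Axin2 and Apc were higher and Axin1 and Gsk3b passed in neither direction. Axin2, a scaffold of the complex that is itself a well-known transcriptional target of β-catenin, measured 7.48, 7.65 and 7.45 on the cel-239b arrays and 8.24, 8.32 and 8.21 on the miR-294 arrays. Every miR-294 array was above every cel-239b array (log fold change 0.73 ± 0.07, adjusted p = 0.000622, or 1.66-fold). Axin1, the scaffold expressed in most cells, read 9.79, 9.70 and 9.81 on the cel-239b arrays and 9.90, 9.85 and 9.87 on the miR-294 arrays. These groups were also separate, but the difference was small and the test was not passed (log fold change 0.11 ± 0.06, adjusted p = 0.184).

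Apc, the other scaffold, stood at 6.99, 6.55 and 6.67 on the cel-239b arrays and 7.04, 7.19 and 7.10 on the miR-294 arrays. One cel-239b array was close to the miR-294 arrays, and the groups were separated by 0.05 (log fold change 0.38 ± 0.11, adjusted p = 0.0417). The call was lost under 7 of 16 processing alternatives, 5 of them leaving out one array (each except cel-239b replicate 1) and the others the replicate block and no detection filter, with adjusted p from 0.0693 to 0.12. For Gsk3b, a kinase of the complex, the groups overlapped (log fold change -0.04, 95% interval -0.28 to 0.20, adjusted p = 0.806).

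β-catenin (Ctnnb1) gave 12.52, 12.67 and 12.64 on the cel-239b arrays and 12.34, 12.45 and 12.52 on the miR-294 arrays on probe 5870370. Its miR-294 arrays were all just below the cel-239b arrays without passing the test (log fold change -0.17 ± 0.07, adjusted p = 0.0974), although it passed with a variance-stabilizing transformation (adjusted p = 0.0329). On probe 3060497 the groups overlapped (log fold change -0.04 ± 0.07, adjusted p = 0.656).

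The TCF/LEF factors, which bring β-catenin to DNA, moved in both directions. Lef1 measured 6.26, 6.19 and 6.06 on the cel-239b arrays and 5.54, 5.13 and 5.44 on the miR-294 arrays on probe 2710286, and its other 3 probes were detected on no array. Probe 2710286 was detected on all 3 cel-239b arrays and on no miR-294 array. It entered the test only through the group in which it is high, so no p-value is given for it. Only a bound can be given: at least 1.40-fold lower. Like those of Dkk3, this bound holds on the background-corrected scale and its size depends on the background correction. Tcf7l2, also called Tcf4, read 8.18, 8.36 and 8.27 on the cel-239b arrays and 7.82, 7.68 and 7.87 on the miR-294 arrays on probe 4250328 (log fold change -0.48 ± 0.08, adjusted p = 0.00358). The second probe, 5050717, stood at 6.24, 6.42 and 6.30 on the cel-239b arrays and 5.56, 5.80 and 5.85 on the miR-294 arrays (log fold change -0.59 ± 0.09, adjusted p = 0.00345). On this second probe, 1 miR-294 array was not above the detection limit. Neither Tcf7l2 probe showed overlap between the groups. Tcf7, also called Tcf1, gave 6.55, 6.87 and 6.71 on the cel-239b arrays and 7.20, 7.25 and 7.38 on the miR-294 arrays on probe 4390180 (log fold change 0.57 ± 0.09, adjusted p = 0.00441). On probe 3780471 it measured 6.55, 7.01 and 7.03 on the cel-239b arrays and 7.35, 7.33 and 7.33 on the miR-294 arrays (log fold change 0.48 ± 0.13, adjusted p = 0.0263). The second of these calls was lost without any one of the miR-294 arrays and with no detection filter (adjusted p = 0.0633 to 0.0762), while the first was kept. In all, 11 member genes had more than 1 tested probe, and within each of the 11 all probes had the same sign.

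**Figure D4:**
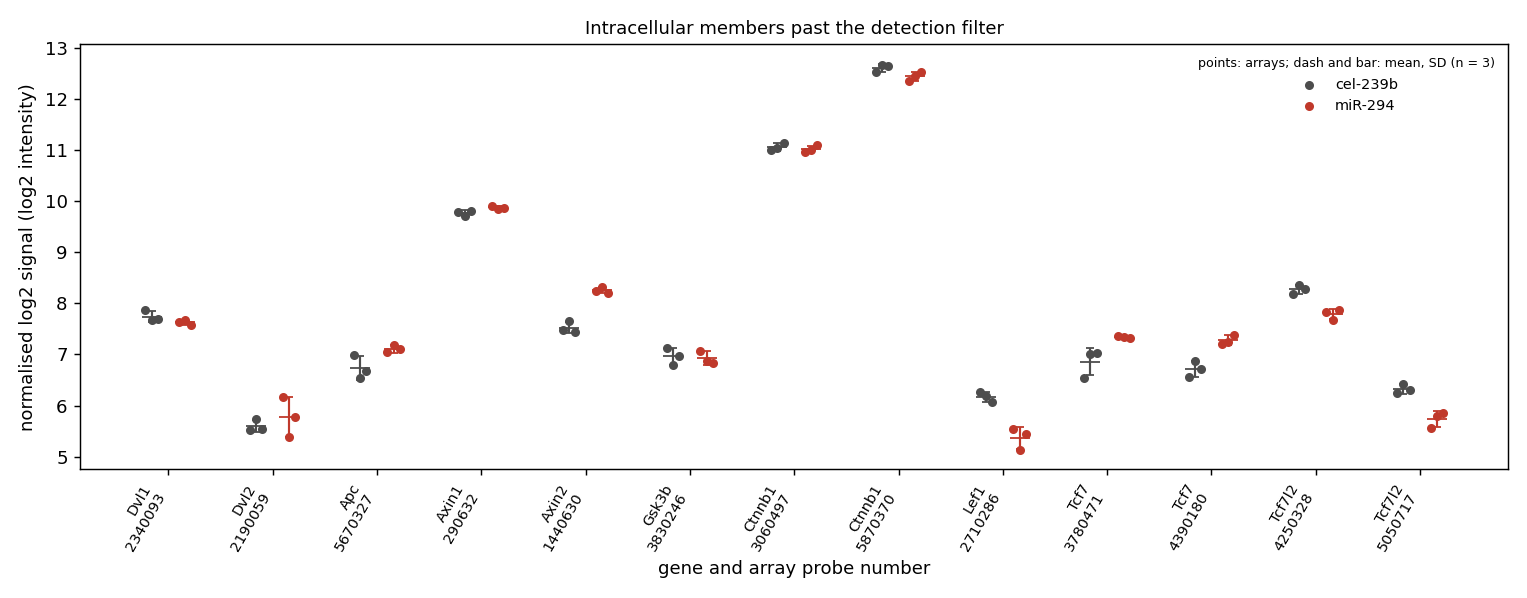
Normalised log2 signal (vertical axis) of every tested Dishevelled, destruction complex, β-catenin and TCF/LEF probe (horizontal axis) on the 3 cel-239b arrays (grey) and the 3 miR-294 arrays (red); points are arrays, dashes and bars are the mean and SD. Axin2, Apc and Tcf7 are higher with miR-294 and Lef1 and Tcf7l2 lower, while the Dvl1, Dvl2 and Gsk3b points overlap.

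Because Axin2 is the member best known as a read-out of TCF/LEF binding, its start region is shown as the 300 bases from 250 before to 50 after the start of transcription, chr11:108920099-108920398 on the plus strand (RefSeq, GRCm38.p6).
Axin2: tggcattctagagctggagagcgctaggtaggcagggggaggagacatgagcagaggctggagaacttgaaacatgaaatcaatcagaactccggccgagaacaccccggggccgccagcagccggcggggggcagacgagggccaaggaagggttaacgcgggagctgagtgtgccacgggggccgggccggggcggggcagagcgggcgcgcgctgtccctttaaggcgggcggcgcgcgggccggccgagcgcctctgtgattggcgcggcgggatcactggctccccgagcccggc
Of the TCF/LEF motif, only the form CTTTGAT was searched, on both strands. It is not among these letters, so no capitals mark it. Of the 43 such windows read for 34 member genes, 2 held this form (4.65%, beside 3.73% of 32851 windows in all). They belong to Wnt5b and Wnt11, neither of which was tested. Member windows on the chromosome of Apc were left out, while the windows in all include that chromosome. No window was read for the other members, among them Apc, Fzd2, Fzd6, Dkk3, Sfrp1, Wnt10a and Wnt7b. A match is a description of the sequence, and its absence says only that these letters are not in this window.

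The rest of the pathway was read from a separate list. Of 50 other pathway genes, chosen for their known roles, 24 were tested, of which 3 were higher, 5 were lower and 16 passed in neither direction. By probe, 14% were higher and 14% lower, shares near those of all probes, the median log fold change was 0.003 and no probe had a B-statistic above 5. The higher genes were the kinase genes Csnk1d (4 of 5 probes, 0.24 to 0.34) and Gsk3a (0.28 ± 0.09, adjusted p = 0.0495) and the co-repressor Tle3, on 1 of 4 probes and there not detected on any cel-239b array. Among the lower genes were Csnk1e, a kinase that acts on Dishevelled (-0.50 ± 0.10 and -0.47 ± 0.05), Dact2, a Dishevelled-binding protein (-0.46 ± 0.13), and Ror2, a receptor for Wnt5a (-0.45 ± 0.07). The Wnt secretion genes Wls and Porcn did not pass.

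Genes known to respond to β-catenin formed a further list of 15, which shares 5 genes with the list of other pathway genes (Notum, Lgr5, Znrf3, Rnf43 and Nkd1), so that Notum counts as lower in both. Of the 15, 8 were tested, of which 3 were higher, 3 were lower and 2 passed in neither direction, with a median of -0.04. By probe, 33.3% were higher and 25% lower (beside 16% and 16.3% of all probes), and the higher ones include T, which was tested only through the miR-294 arrays. T, the mesoderm factor Brachyury, passed the detection limit on each miR-294 array but on none of the controls. No p-value is therefore given for T. Cdx1 was higher on both probes (0.38 ± 0.09 and 0.59 ± 0.08), and Cdx2 was higher as well (0.56 ± 0.05, adjusted p = 0.00057). Tdgf1, the Nodal co-receptor (-0.39 ± 0.11), Notum, an enzyme that removes the lipid from Wnt (-0.35 ± 0.06 on the probe that passed), and Ccnd1, cyclin D1, on 1 of 3 probes (-0.22 ± 0.07), were lower. Another Ccnd1 probe had the opposite sign, 0.10 ± 0.06, with no overlap and without passing (adjusted p = 0.236). Sp5, a direct Wnt target in ES cells, differed by 0.05 ± 0.08 with overlapping groups.

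Markers of other cell types were read alongside. The summed signal of 14 ES marker probes was 110769 to 129586 on the cel-239b arrays and 120728 to 131530 on the miR-294 arrays. Of the 9 ES markers, Nanog, Zfp42 and Esrrb were higher with miR-294, Tdgf1 was lower and 5 passed in neither direction. The called T, Gsc, Dab2 and Thy1 probes were detected on no cel-239b array and the Fgf5 probe on no miR-294 array, so they were tested only through the group in which they are high, and no fold is given for them. Of 5 mesoderm markers, Eomes was higher with miR-294, T and Gsc were detected with miR-294 alone, and Mesp1 and Mixl1 were not detected (summed signal 508.5 to 574.9 against 578.1 to 665.9). Of 7 endoderm markers, Sox7 was higher, Dab2 was detected with miR-294 alone, on 2 of 4 probes, and Gata4, Gata6, Sox17, Foxa2 and Afp were not detected (1089 to 1225 against 1230 to 1331). Of 5 ectoderm markers, Fgf5 was detected with cel-239b alone, Nes did not pass, and Neurog2, Pax6 and Sox1 were not detected (658.1 to 829.5 against 611.8 to 677.2). Of 6 fibroblast markers only Thy1 was detected, on the miR-294 arrays, and the sums overlapped (650.7 to 726.1 against 672.6 to 734.3, with 653.4 for a background of as many probes). The part of these cell types in the values of the Wnt members was not tested.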

How the data were processed

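Gene expression in 6 RNA samples (3 per group) was measured on Illumina mouse BeadChips. For each array the authors deposited a signal intensity per probe (GenomeStudio 1.0.6, with no normalisation per the file headers), a detection score from 0 to 1 and bead numbers (the number of beads behind a signal, a median of 44), with replicates kept apart and no p-values of a comparison; the method behind their own normalised analysis is not given in the sources used here. Signals were background-corrected by normexp with 1 minus the detection score as the detection p-value, an offset of 16 was added, and arrays were quantile-normalised on the log2 scale (limma 3.58.1 in R 4.3.3). The offset shrinks log fold changes of dim probes. Probes with a detection score above 0.99 on at least 3 arrays were fitted with lmFit and eBayes, and p-values were adjusted by Benjamini-Hochberg over 14621 probes. On simulated data made from these arrays, 69.7% of changes of 1 log2 unit and 88% of changes of 1.5 were called. Each had its true sign, and 16 unchanged probes were called as well. Only 99 tested probes changed by 1 and 100 by 1.5, among 18509, a much smaller share than was called on the real arrays. Background noise was also added on top of the spread within groups. The shares therefore do not measure how many changes the real comparison missed. An exact permutation test of 3 against 3 arrays cannot go below p = 0.1, so it was not used. Precision is limited by having 3 arrays per group.

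The members, classes and lists were chosen with earlier results of these data known. Every member probe that passed the test or whose groups did not overlap is named with values, as is each other tested member, and of the lists of other genes up to 3 in each direction. A member probe detected on no array of a group received a bound and no fold or p-value, and a probe of the other lists received none of these. The bead standard deviations served one alternative, the variance-stabilizing transformation, and 24 further per-sample columns (lowest and highest signal, number of arrays, spread over arrays) were not used. The chip on which each array lay is not given in the sources used here, so no chip block was fitted. Alternatives covered background correction, offset, normalisation, log scale, detection filter, threshold, array weights, the replicate block and leaving out each array. The array names Tcf3 for 2 probes that can mean either of 2 genes, and these were left out; 1 probe under the old β-catenin name Catnb was detected on 1 array and was not tested. The deposited intensities come from bulk RNA of sorted cells.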

Additional observations from a re-analysis of the deposited data

How the results depend on the processing

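Over 464 combinations of a processing alternative with one of the 30 member probes whose groups did not overlap (the other 8 tested probes were not followed), 448 kept their direction and side of the threshold, 11 lost the call (Apc 7, Tcf7 probe 3780471 4), 5 gained one and none reversed. Sizes moved more: over the alternatives the log fold change ran from -1.402 to -0.399 for Fzd6 probe 4180091, from -0.971 to -0.332 for Fzd2 and from -0.819 to -0.156 for Wnt10a, each smallest in size with the variance-stabilizing transformation. The number of member genes higher ranged from 4 to 6 and lower from 9 to 12. Member probes with a B-statistic above 5 numbered 6, and 10 without background correction; leaving out one array gave 0 (without miR-294 replicate 2) to 5 (without cel-239b replicate 1). The median log fold change over member probes of -0.161 became -0.051 with the variance-stabilizing transformation and -0.018 with no detection filter. The cause was not tested, except that the last setting adds the 56 untested probes and fewer arrays leave less to estimate the spread from. With the replicate block, 6 member genes were higher, 5 of them shared with the fit without it (Apc was lost, adjusted p = 0.0716, and Sfrp2 gained, adjusted p = 0.0469), 11 were lower and 4 probes had a B-statistic above 5, while over all probes that count fell from 215 to 51. The deviations of same-numbered arrays from their group means correlated at 0.139, -0.078 and 0.141, and 2 of 3 miR-294 arrays correlated best with their own number. These values do not settle whether same-numbered arrays are pairs. The main fit had no replicate block because the methods name none. Over all probes the count above 5 was 398 without background correction or with the variance-stabilizing transformation, 396 with median scaling and 67 to 134 without one array. Dim probes are limited by signal over background, above all Dkk3 and Lef1, which drop out of the test when an array of the group that detects them is left out.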
